A study of Homo sapiens with 22 samples.

Results

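Tubulins are the subunits of microtubules, and the transcripts of 9 tubulin genes and of ATAT1, the acetyltransferase of α-tubulin, were measured by sequencing of rRNA-depleted RNA from HT1080 cells. The genes were chosen by name and not by any measured value, though earlier results of these data were known. They are 4 genes of α-tubulin (TUBA1A, TUBA1B, TUBA1C and TUBA4A), 5 genes of β-tubulin (TUBB, TUBB2A, TUBB3, TUBB4B and TUBB6) and ATAT1, which makes 10 of the 60675 genes in the table. All 10 passed the filter on low counts in each of 7 comparisons.

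A microtubule is a hollow polymer of α- and β-tubulin heterodimers. ATAT1 acetylates lysine 40 of α-tubulin, a residue that faces the lumen, and the lysine deacetylases KDAC6 (gene HDAC6) and SIRT2 remove the mark, so α-tubulin is the best known substrate of KDAC6. Cells also adjust tubulin transcripts to the pool of free dimers: TTC5 recognises the first residues of a nascent tubulin chain on the ribosome, and the transcript is then degraded through the CCR4-NOT deadenylase.

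HT1080 is a human fibrosarcoma line, and 22 libraries in 6 groups were analysed. Unedited, untreated cells (WT, n = 4; no vehicle is named for them) were set beside cells edited in a catalytic domain of KDAC6 (KDAC6H216A, n = 4, and KDAC6H611A, n = 4), cells edited in the catalytic site of KDAC8, the product of HDAC8 (KDAC8H143A, n = 4), and WT cells exposed for 2 days to 1 µM Tubastatin A, a KDAC6 inhibitor (n = 3), or to 5 µM PCI-34051, a KDAC8 inhibitor (n = 3). Edited lines were grown from single colonies. The KDAC6H216A cells were a pool of 3 independent lines, and the number of lines behind the other edited groups is not given in the sources used here, so a difference of an edited group from WT and a difference of the founding colony cannot be told apart. The design asks whether loss of activity through an edited enzyme and through an inhibitor gives the same transcript response, and here that question is put to the substrate genes of KDAC6 and to the opposing enzyme.

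Lysine 40 lies in the same short coding stretch in the 4 α-tubulin genes. The stretch from codon 36 to codon 44 is shown because it is the site on which ATAT1 and KDAC6 act, with the lysine codon in capitals (GRCh38, 5′ to 3′ on the coding strand).
TUBA1A, chr12:49186705-49186731, minus strand: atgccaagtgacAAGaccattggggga
TUBA1B, chr12:49129594-49129620, minus strand: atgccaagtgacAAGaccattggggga
TUBA1C, chr12:49269567-49269593, plus strand: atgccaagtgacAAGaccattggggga
TUBA4A, chr2:219252102-219252128, minus strand: atgcccagtgacAAGaccattggtgga
The 27 bases were identical in TUBA1A, TUBA1B and TUBA1C. TUBA4A differed at 2 of them and encodes the same 9 residues.

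The first 4 codons carry the residues that TTC5 reads, and they separate the α from the β genes. The fourth codon, in capitals, encodes cysteine in the α genes and isoleucine in the β genes. In the α genes an intron follows the start codon, so only the β-tubulin stretches are given a position.
TUBA1A, TUBA1B and TUBA1C: atgcgtgagTGC
TUBA4A: atgcgtgaaTGC
TUBB, chr6:30720507-30720518, plus strand: atgagggaaATC
TUBB4B, chr9:137241361-137241372, plus strand: atgagggaaATC
TUBB2A, chr6:3157452-3157463, minus strand: atgcgcgagATC
TUBB3, chr16:89923402-89923413, plus strand: atgagggagATC
TUBB6, chr18:12308293-12308304, plus strand: atgagggagATC
Each α gene thus encodes MREC and each β gene MREI at its start.

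The genes are spread over 6 chromosomes, and several overlap another gene. TUBA1A, TUBA1B and TUBA1C lie together on chromosome 12 (49184686 to 49189080, 49127782 to 49131397 and 49188736 to 49274600), where the longest transcripts of TUBA1A and TUBA1C run into each other from opposite strands. ATAT1 (chromosome 6, 30626842 to 30646823) and TUBB (chromosome 6, 30717435 to 30725538) are near neighbours in the major histocompatibility region, and TUBB2A stands apart on the same chromosome (3153497 to 3157544). TUBA4A is on chromosome 2 (219249710 to 219277902), TUBB3 on chromosome 16 (89921392 to 89938761), TUBB4B on chromosome 9 (137241287 to 137243707) and TUBB6 on chromosome 18 (12307669 to 12344320).

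Reads of close paralogs can be split between genes, and the strand setting of the counting is not given in the sources used here. Over the first 400 codons, TUBA1A and TUBA1B shared 97.3% of coding bases and TUBA1B and TUBA1C 98.1%, while TUBA4A shared 85.5 to 86.8% with them and the β genes shared 81.2 to 89.3% with each other. Of the 150-base windows of the principal transcript, 8.0% of TUBA1A, 19.1% of TUBA1B and 7.2% of TUBA1C occurred also in another member. For TUBB2A, 48.7% of windows occurred in TUBB2B, which was itself at 0 to 1.35 CPM (counts scaled to a common library size), and for TUBB3, 92.3% occurred in the MC1R-TUBB3 readthrough gene, which had 3 counts or fewer in 19 of 22 libraries. TUBB4B, TUBB6 and ATAT1 shared no window of this length. Antisense or overlapping genes add to this uncertainty for TUBA1C, where the antisense transcript ENSG00000258232 stood at 46.0 to 156 CPM, and for TUBA4A, where 25.2% of windows lie in STK16 (9.50 to 16.8 CPM).

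Library totals ran from 5248960 to 29862658 counts, with 24315844 or more in the inhibitor libraries and at most 8998521 in WT. Mitochondrial ribosomal RNA made up 20.8 to 23.9% of counts in WT, under 0.03% in KDAC8H143A and in both inhibitor groups, and 0.195% and 0.173% in KDAC6H216A replicate 1 and KDAC6H611A replicate 4 against 13.1 to 38.0% in the other KDAC6 libraries. The share of mitochondrial ribosomal RNA and the group therefore cannot be told apart for KDAC8H143A and the inhibitors. Vimentin (VIM, 2083 to 4681 CPM), FN1, CD44 and SPARC marked the cells as mesenchymal, S100A4 and THY1 were at most 3.26 CPM, EPCAM had 3 counts or fewer in all 22 libraries and CDH1 in 21, the keratins KRT8 and KRT18 were present at 95.3 to 253 CPM, and the leukocyte genes PTPRC and CD3E had 3 counts or fewer in 22. HDAC6 itself was lower in KDAC6H216A (6.37 ± 0.75 CPM, SD, n = 4) than in WT (14.2 ± 3.28), a log2 difference of -1.25 ± 0.18 (SE) at an adjusted p of 0.00540 (edgeR), and no other comparison with WT called it, while HDAC8 had group means of 12.5 to 13.7 CPM; a changed codon need not alter a transcript level, so these values do not check the labels. In bulk RNA, fewer cells of a kind and less RNA per cell cannot be told apart.

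**Figure D1:**
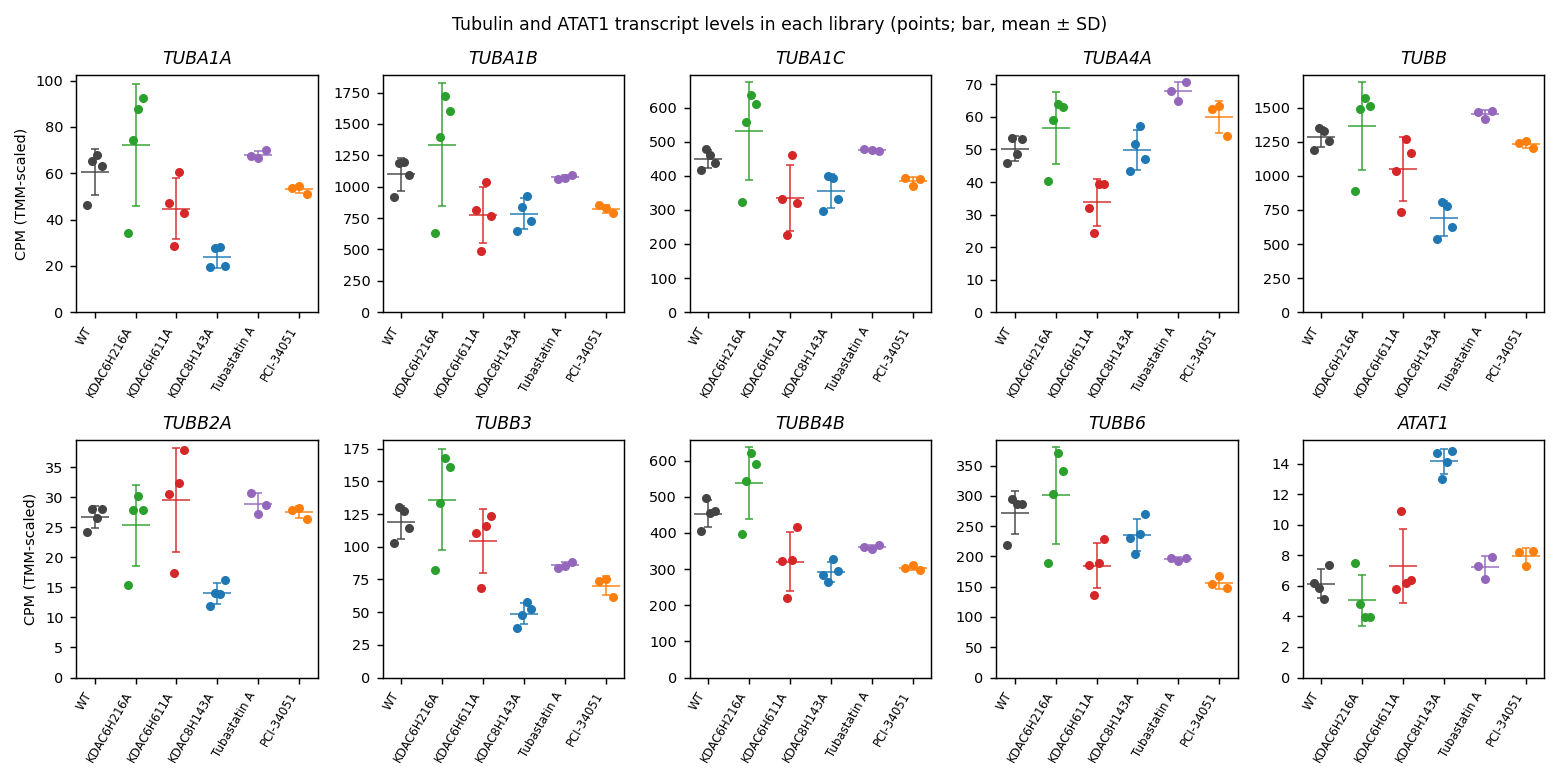
Normalized level (CPM, linear axes from 0) of the 10 genes in the 22 libraries of the 6 groups, 1 point a library, with a dash at the group mean and a whisker of 1 SD. The KDAC8H143A mean is the lowest of the 6 for TUBA1A, TUBB, TUBB2A, TUBB3 and TUBB4B, and for ATAT1 its 4 libraries are the highest, at 13.0 to 14.9 CPM.

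Per unit of transcript length, 2 genes supplied most of each family in WT. Among the α genes TUBA1B made up 70.1% ± 1.23 (SD, n = 4), TUBA1C 23.1% ± 1.31, TUBA1A 3.60% ± 0.27 and TUBA4A 3.12% ± 0.24. Among the β genes TUBB made up 49.9% ± 1.21, TUBB4B 35.2% ± 0.73, TUBB6 10.9% ± 0.76, TUBB3 2.52% ± 0.10 and TUBB2A 1.45% ± 0.05. ATAT1 stood at 2.08 TPM (a length-normalized share of the library) in WT, beside 433 ± 38.7 TPM for TUBB and 422 ± 60.5 TPM for TUBA1B. The abundant isotypes were therefore the broadly expressed ones, and TUBB3, best known as the neuronal β-tubulin, was a minor one. These shares depend on the length assigned to a gene, and beside the union of exons used here the longest transcript gave 62.8% for TUBA1B and 16.5% for TUBB6, while the annotated canonical transcript, an alternative chosen after seeing the data, gave 75.4%, 14.0% and, for TUBB3, 6.73%.

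The composition of both families differed between groups. The TUBA1A share was 1.95% ± 0.14 in KDAC8H143A, where the 4 libraries (1.77 to 2.11%) lay below all 4 of WT (3.22 to 3.80%), and about 4.00% in both inhibitor groups. TUBA4A, a more divergent isotype known from platelets, took 4.67% ± 0.29 of the α family under PCI-34051, 4.14% ± 0.13 under Tubastatin A and 4.24% ± 0.17 in KDAC8H143A, with all libraries above every WT library (2.79 to 3.31%). In the β family the TUBB share was 58.9% ± 0.18 with Tubastatin A and 59.3% ± 0.37 with PCI-34051, against 43.8% ± 5.39 in KDAC8H143A. TUBB6, a widely expressed β isotype, moved the other way, at 8.19% ± 0.02 and 7.79% ± 0.30 with the inhibitors and 15.7% ± 2.33 in KDAC8H143A. In this measure the inhibitor libraries lay on one side of WT and the KDAC8H143A libraries on the other for TUBA1A, TUBB6 and, except for 1 overlapping library, TUBB. These shares have no correction for GC content and are given as a description, without a test. In KDAC8H143A the log2 fold changes of TUBB and TUBB6 against WT were -0.85 and -0.16 in the main fit. With a GC content and gene length correction they were -1.18 and -1.07. Those of TUBA1A and TUBA1B were -1.29 and -0.43 in the main fit and -1.06 and -0.87 with the correction. The genes of each pair thus differed less with it.

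**Figure D2:**
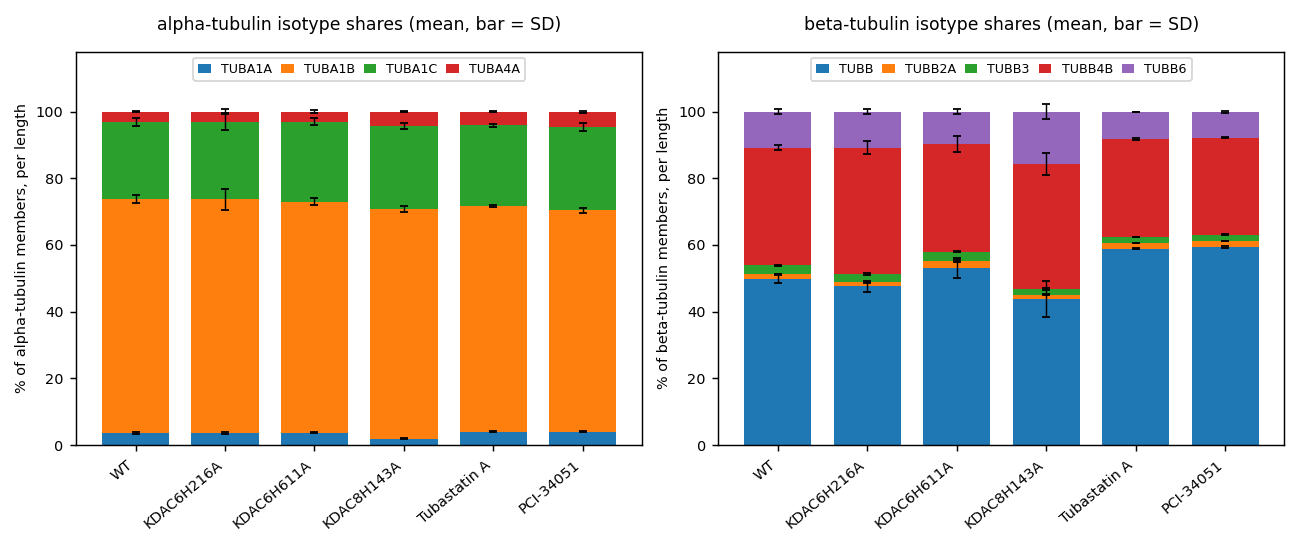
Share of each gene in its family (per cent of the summed length-normalized level, linear axis), as the mean of 3 or 4 libraries per group with SD bars, for the 4 α and 5 β genes. TUBB rises from 49.9% in WT to 58.9% and 59.3% in the inhibitor groups, and TUBA1A is smallest in KDAC8H143A, at 1.95%.

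Calls were made at an adjusted p below 0.01 with edgeR over all genes tested, and the comparisons with WT share its 4 libraries, so they are not independent of each other. Against WT, KDAC6H216A called 0 of the 10 genes (0.834% of all genes), with 0 also at an unadjusted p under 0.05. DESeq2 called 0 as well (2.53% of all genes). The edgeR count and share rest on KDAC6H216A replicate 1, without which 4 of the 10 and 26.0% of all genes (3813 of 14638) were called. KDAC6H611A called 1 gene, lower (12.3% of all genes in either direction, 6.24% lower), with 6 at an unadjusted p under 0.05. The share of all genes at an unadjusted p under 0.05 was not counted. KDAC8H143A called 6, with 5 lower and 1 higher (58.5% of all genes, 26.9% lower and 31.6% higher). Tubastatin A called 4, with 3 lower and 1 higher (57.9%, 28.6% lower and 29.3% higher), and PCI-34051 called 6, all lower (51.1%, 25.6% lower). In KDAC8H143A and both inhibitor groups, more than 1 in 2 of all genes passed the threshold, so 6, 4 and 6 of 10 is a share near or below that of the table as a whole when both directions are counted. Over the 10 genes the median log2 fold change was -0.51 for KDAC8H143A, -0.41 for KDAC6H611A, -0.31 for PCI-34051, -0.02 for Tubastatin A and 0.08 for KDAC6H216A, while over all genes tested it lay between -0.007 and 0.076 in each.

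**Figure D3:**
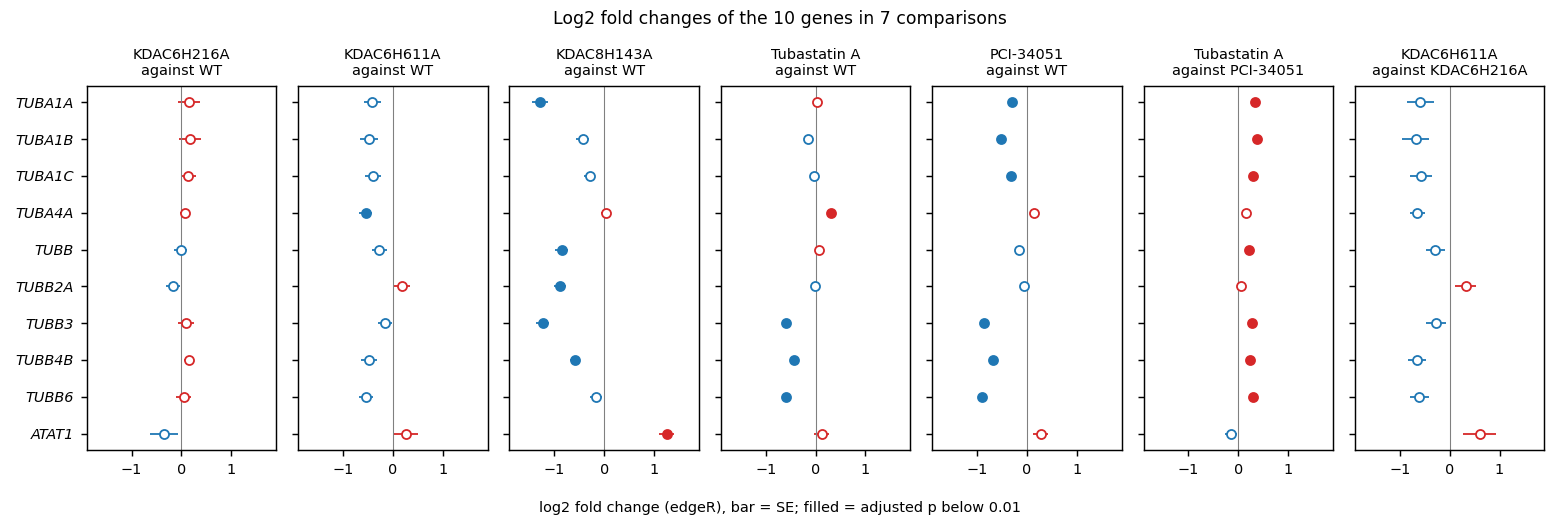
Log2 fold change of each of the 10 genes against WT in the 5 edited or treated groups and between the inhibitors and the KDAC6 lines (1 panel a comparison, points with bars of 1 SE, filled where the adjusted p is below 0.01). ATAT1 lies furthest above 0, at 1.25 in KDAC8H143A, and TUBA1A furthest below, at -1.29 in the same group.

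TUBA1A, an isotype prominent in developing neurons, fell in KDAC8H143A. Its level was 46.1, 65.2, 67.7 and 63.1 CPM in the WT libraries and 19.4, 27.9, 28.2 and 20.0 CPM in KDAC8H143A, so every edited library lay below every WT one. On the log2 scale the fold change was -1.29 ± 0.15 (SE), with an adjusted p of 2.25e-05. With PCI-34051 (53.7, 54.6 and 51.1 CPM) it fell less, with a log2 fold change of -0.30 ± 0.08 (adjusted p = 0.00232), but the ranges overlapped through WT replicate 1, and the call was lost without WT replicate 2, 3 or 4 (-0.25 to -0.29, adjusted p up to 0.0191). With Tubastatin A (67.5, 66.5 and 69.9 CPM) the log2 difference was 0.03 ± 0.06 and was not called.

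TUBA1B, the main α isotype of these cells, fell with PCI-34051 and was not called with Tubastatin A. The WT libraries held 915, 1190, 1196 and 1090 CPM, the PCI-34051 libraries 855, 827 and 787 CPM and the Tubastatin A libraries 1065, 1067 and 1094 CPM. The PCI-34051 libraries lay below all of WT (log2 fold change -0.51 ± 0.07, adjusted p = 3.93e-06), whereas the Tubastatin A libraries lay inside the WT range (-0.14 ± 0.06, adjusted p = 0.0322), a difference that was called lower without WT replicate 1 (-0.20, adjusted p = 0.000132) and with upper quartile normalization (-0.18, adjusted p = 0.00770). In KDAC8H143A (644, 841, 930 and 727 CPM) the difference of -0.43 ± 0.13 missed the threshold at an adjusted p of 0.0101, and it was called by DESeq2 (-0.48, adjusted p = 0.000483), without WT replicate 1 and without KDAC8H143A replicate 2 or 3 (adjusted p down to 0.00186). TUBA1C, the second α isotype, followed it: it fell with PCI-34051 (392, 369 and 391 CPM against 417, 479, 461 and 438 CPM in WT), with a log2 fold change of -0.32 ± 0.06 (adjusted p = 9.02e-05). In KDAC8H143A its 4 libraries (296, 399, 394 and 331 CPM) also lay below WT, but the difference of -0.29 ± 0.11 was not called (adjusted p = 0.0334). It was called by DESeq2 (-0.33, adjusted p = 0.00491) and without KDAC8H143A replicate 2 (adjusted p = 0.00243). With Tubastatin A (480, 476 and 472 CPM) it was -0.03 ± 0.04.

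TUBA4A was the α gene with its own pattern. It rose with Tubastatin A to 67.9, 65.0 and 70.7 CPM, above all WT libraries (45.7, 53.5, 48.5 and 53.1 CPM), by 0.32 ± 0.05 on the log2 scale (adjusted p = 2.95e-05). With PCI-34051 its 3 libraries (62.3, 63.2 and 54.3 CPM) also lay above WT, but the difference of 0.15 ± 0.06 was not called (adjusted p = 0.0522). It was called with no filter (0.24, adjusted p = 0.00188) and without PCI-34051 replicate 3 (0.21, adjusted p = 0.00746). In KDAC6H611A it fell to 31.9, 24.2, 39.5 and 39.4 CPM, below every WT library, with a log2 fold change of -0.54 ± 0.13 (adjusted p = 0.00786), the one call of that comparison. That call was lost without any 1 of the 4 WT libraries or without KDAC6H611A replicate 1, with adjusted p-values up to 0.0320 and the direction kept. In KDAC8H143A (43.4, 51.8, 57.2 and 46.9 CPM) its log2 difference was 0.04 ± 0.11.

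TUBB, the most abundant β isotype per length, fell in KDAC8H143A. The WT libraries held 1191, 1354, 1332 and 1259 CPM and the KDAC8H143A libraries 537, 812, 779 and 624 CPM, without overlap, which is a log2 fold change of -0.85 ± 0.13 (adjusted p = 0.000121). The inhibitor groups stood close to WT, with 0.06 ± 0.04 for Tubastatin A (1466, 1418 and 1473 CPM) and -0.16 ± 0.05 for PCI-34051 (1242, 1256 and 1202 CPM, adjusted p = 0.0104). The PCI-34051 difference passed the threshold by DESeq2 (adjusted p = 0.000442) and without WT replicate 1 (adjusted p = 0.00485). CPM here are normalized over all 22 libraries and the fold changes within each pair of groups. The ratio of 2 CPM values can therefore differ from the fold change beside it, also in sign where the change is small. For TUBA1C the mean was 476 CPM with Tubastatin A and 449 CPM in WT, while its log2 fold change was -0.03. Statements on overlap with WT libraries rest on these CPM and carry the same limit.

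TUBB2A, a minor β isotype, fell in KDAC8H143A to 11.8, 14.1, 13.9 and 16.2 CPM from 24.2, 28.0, 26.5 and 28.1 CPM in WT. Again no library overlapped, and the log2 fold change was -0.88 ± 0.12 (adjusted p = 5.66e-05). It was called in no other comparison with WT, and its inhibitor values lay within 0.07 of 0 (-0.01 ± 0.07 and -0.06 ± 0.07). In KDAC6H611A it was the one tubulin with a log2 difference above 0 (0.18 ± 0.17, adjusted p = 0.506), with replicate 2 at 17.5 CPM and the other libraries at 30.6 to 37.8 CPM.

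TUBB3 and TUBB4B fell in KDAC8H143A and under both inhibitors. TUBB3 held 103, 130, 127 and 115 CPM in WT, 38.2, 47.5, 57.5 and 52.3 CPM in KDAC8H143A, 83.6, 85.0 and 88.6 CPM with Tubastatin A and 73.6, 75.6 and 61.6 CPM with PCI-34051. All 10 edited or treated libraries were below all 4 of WT, with log2 fold changes of -1.23 ± 0.13 (adjusted p = 9.15e-06), -0.59 ± 0.06 (adjusted p = 2.45e-08) and -0.86 ± 0.07 (adjusted p = 1.20e-08). TUBB4B, the second β isotype and a main tubulin of cilia, held 405, 496, 454 and 460 CPM in WT, 284, 263, 328 and 295 CPM in KDAC8H143A, 362, 357 and 368 CPM with Tubastatin A and 302, 311 and 297 CPM with PCI-34051. Here too no library reached the WT range, and the log2 fold changes were -0.58 ± 0.10, -0.44 ± 0.05 and -0.68 ± 0.06 (adjusted p = 0.000327, 1.96e-07 and 2.71e-08).

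TUBB6 fell with both inhibitors and did not pass the test in KDAC8H143A. The WT libraries held 219, 295, 287 and 286 CPM, those of Tubastatin A 197, 192 and 198 CPM and those of PCI-34051 155, 168 and 148 CPM. Both inhibitor groups lay wholly below WT, with log2 fold changes of -0.59 ± 0.06 (adjusted p = 1.16e-07) and -0.90 ± 0.08 (adjusted p = 1.94e-08). The KDAC8H143A libraries (230, 204, 238 and 270 CPM) overlapped WT, with a difference of -0.16 ± 0.12. Among the 5 β genes, then, TUBB and TUBB2A were called in KDAC8H143A alone of the comparisons with WT, TUBB6 with the inhibitors alone, and TUBB3 and TUBB4B in all 3. In KDAC6H611A, TUBB6 (-0.53 ± 0.14, adjusted p = 0.0140) and TUBB4B (-0.48 ± 0.15, adjusted p = 0.0381) were also lower but missed the threshold. DESeq2 called both there (adjusted p = 0.00119 and 0.00934), so the TUBB6 decrease is not particular to the inhibitors. Whether the effects differ between an edited line and an inhibitor was not tested.

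ATAT1, the enzyme that acetylates α-tubulin, rose in KDAC8H143A. It was a low-abundance transcript, with 6.20, 5.87, 5.18 and 7.38 CPM in WT (30 to 51 counts) and 14.7, 13.0, 14.1 and 14.9 CPM in KDAC8H143A (176 to 269 counts). Every edited library was above every WT library, and the fold change was 2.39, or 1.25 ± 0.15 on the log2 scale (adjusted p = 2.50e-05). With Tubastatin A it stood at 7.32, 6.42 and 7.92 CPM (log2 difference 0.13 ± 0.15) and with PCI-34051 at 8.24, 7.29 and 8.28 CPM (0.28 ± 0.15, adjusted p = 0.124), neither called. The KDAC6 lines gave 7.51, 4.83, 3.96 and 3.97 CPM for KDAC6H216A and 5.80, 10.9, 6.16 and 6.40 CPM for KDAC6H611A, and neither difference (-0.36 ± 0.28 and 0.27 ± 0.25) passed the threshold. The KDAC6H611A value was carried by replicate 2, since without it the log2 difference was -0.01. The KDAC6H216A value depended on replicate 1, without which it was -0.66, just short of the threshold (adjusted p = 0.0102). Of the 4 KDAC6H216A libraries, 3 lay below every WT library and 1 above.

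The 6 calls in KDAC8H143A were made without each of the 8 libraries in turn. Their size and that of the other 4 genes depended on how GC content and gene length were handled. With a smooth correction for both, all 10 genes were called in this comparison (7669 of all 16101 genes), the 9 tubulins with log2 fold changes from -1.84 (TUBB3) to -0.46 (TUBA1C) and ATAT1 with 1.00. TUBA4A turned from 0.04 to -0.62 and TUBB6 moved from -0.16 to -1.07 under that correction. The genes around each member moved too. Of the 75 tested genes within 5 Mb of TUBB3, 52 were higher and 3 lower, with a median log2 fold change of 1.26, while TUBB3 itself fell by 1.23 on the log2 scale. Of the 99 around TUBB4B, 69 were higher and 4 lower (median 1.01). The 206 genes around ATAT1 had a median of 0.17 (71 higher and 41 lower), those around TUBA1A 0.38 and those around TUBB6 -0.32. In the main fit TUBB3 and TUBB4B thus lay far below their chromosomal surroundings, and ATAT1 above them. The neighbour values were taken from that fit alone, without the GC content and gene length correction, so they compare with the uncorrected values only. The part of the mitochondrial ribosomal RNA share in these differences was not tested.

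**Figure D4:**
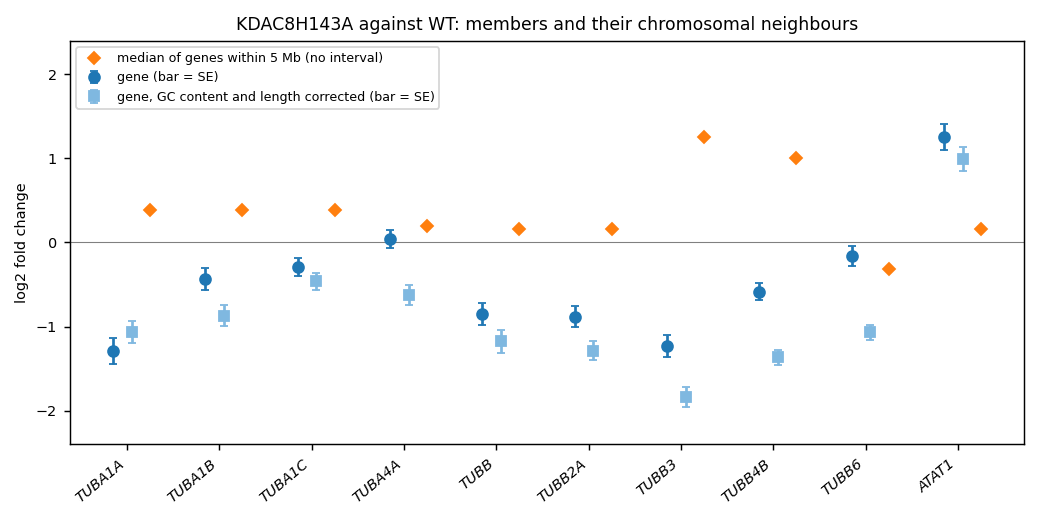
Log2 fold change of each gene in KDAC8H143A against WT (circles, with SE bars), the value corrected for GC content and length (squares), and the uncorrected median of the tested genes within 5 Mb of it (diamonds). TUBB3 is at -1.23 where its neighbours have a median of 1.26, and ATAT1 is at 1.25 where its neighbours have a median of 0.17.

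Under scaling to the total count alone, the median log2 fold change over all genes shifted to 0.38 with PCI-34051, 0.36 in KDAC8H143A and 0.35 with Tubastatin A, and values have to be read against that shift. Of all genes, 9370 of 15346, 8975 of 16101 and 9756 of 15246 were then called, in the same order. On that scale TUBA1A, TUBB, TUBB2A and TUBB3 were still called lower in KDAC8H143A (-0.99, -0.55, -0.60 and -0.94) and ATAT1 higher (1.54), while TUBB4B was not (-0.30). With Tubastatin A 9 genes were then called, TUBA4A at 0.67 and 6 others between 0.21 and 0.48, around the shifted median, and TUBB4B was no longer called (-0.09). The decreases of TUBB3 and TUBB6 were kept under the same scaling in both inhibitor groups, at -0.24 and -0.24 with Tubastatin A and -0.47 and -0.51 with PCI-34051. TUBA1A and TUBA1C, called lower with PCI-34051, turned to 0.09 and 0.06, and TUBA1B lost its call there (-0.13, adjusted p = 0.154), all 3 still below the shifted median. TUBB4B remained called with PCI-34051 (-0.29), and TUBA4A (0.54), TUBB (0.23), TUBB2A (0.33) and ATAT1 (0.66) were called higher, from below to above that median. When all 6 groups were fitted together, 0 of the 10 genes were called with Tubastatin A, and TUBB3, TUBB4B and TUBB6 remained called with PCI-34051. That fit called 4607 and 4341 of all 18480 genes with the 2 inhibitors.

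The inhibitors, given at different doses for the same time, were compared with each other in the 6 treated libraries, which had similar depth and composition. Tubastatin A libraries had the higher level of 7 of the 10 genes and PCI-34051 of 0 (5.65% of all genes called, 3.45% with Tubastatin A higher). The log2 differences were 0.34 ± 0.05 for TUBA1A, 0.37 ± 0.04 for TUBA1B, 0.29 ± 0.04 for TUBA1C, 0.22 ± 0.03 for TUBB, 0.27 ± 0.06 for TUBB3, 0.24 ± 0.04 for TUBB4B and 0.30 ± 0.05 for TUBB6. Their adjusted p-values ran from 1.39e-05 (TUBA1B) to 0.00638 (TUBB3). TUBA4A (0.16 ± 0.05, adjusted p = 0.0585) and TUBB2A (0.05 ± 0.06) were not called, nor was ATAT1 (-0.15 ± 0.12). The 7 genes and TUBA4A did not overlap between the 2 groups, with Tubastatin A the higher, as was so for 17.9% of all genes (31.6% in either direction). With 1 library left out, 4 to 7 of the 10 genes were called (407 to 1161 of all genes), and TUBA1A, TUBA1B, TUBA1C and TUBB6 were called each time. TUBB3 stayed called only without PCI-34051 replicate 2 (log2 differences 0.19 to 0.30 and adjusted p up to 0.0490 in the other 5 fits), TUBB4B was lost without Tubastatin A replicate 1 or 3 (adjusted p = 0.0173 and 0.0252) and TUBB without Tubastatin A replicate 3 (0.22, adjusted p = 0.0109), where the count was 4. In the fit of all 6 groups 0 of the 10 genes were called, but that fit called only 7 of all 18480 genes. The log2 differences of the 7 tubulins ran there from 0.24 (TUBB) to 0.38 (TUBA1B).

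The lines edited in the 2 catalytic domains of KDAC6 did not differ by the test in any of the 10 genes, while 9.93% of all genes were called. At an unadjusted p under 0.05 there were 6, all tubulins and all lower in KDAC6H611A, a threshold at which all genes were not counted. DESeq2 called 2 of the 10, beside 16.7% of all genes (2492 of 14961). The largest differences by size were TUBA1B (-0.68 ± 0.28, adjusted p = 0.114), TUBB4B (-0.65 ± 0.17, adjusted p = 0.0242) and TUBA4A (-0.65 ± 0.15, adjusted p = 0.0119). The TUBA4A libraries of KDAC6H216A held 40.4, 59.0, 63.9 and 63.0 CPM, all above those of KDAC6H611A given earlier. ATAT1 had the opposite sign (0.60 ± 0.33, adjusted p = 0.230). Without KDAC6H216A replicate 1, 5 genes were called in this comparison (19.5% of all genes, 3041 of 15615) and 4 in KDAC6H216A against WT, where TUBA1A, TUBA1B, TUBA1C and TUBB4B were then higher by 0.33, 0.38, 0.28 and 0.23.

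Each of the 9 tubulins lay below its group mean in 4 libraries and above it in 5, and the signs were mixed in the others. In WT replicate 1, KDAC6H216A replicate 1, KDAC6H611A replicate 2 and KDAC8H143A replicate 1, where all 9 were below, the median log2 deviations were -0.16, -0.64, -0.52 and -0.25. KDAC6H216A replicate 1 held 628 CPM of TUBA1B where the other 3 libraries held 1397, 1720 and 1600 CPM, and KDAC6H611A replicate 2 held 490 CPM where the others held 812, 1036 and 765 CPM. In the same 2 libraries ATAT1 was above its group mean, by 0.53 and 0.56. After group means were removed, Pearson's r over the 22 libraries ran from 0.69 to 0.98 for the 36 pairs of tubulins (median 0.89) and from -0.84 to -0.73 for ATAT1 with the 9 tubulins (median -0.81). Both ranges rest on KDAC6H216A replicate 1 and KDAC6H611A replicate 2, since over the other 20 libraries, a choice made after seeing the data, r ran from -0.08 to 0.95 for the tubulins (median 0.59) and from -0.36 to 0.14 for ATAT1 with them (median -0.27). Among the libraries of mixed sign, 4 of 9 tubulins were below the mean in WT replicate 4 and 5 of 9 in KDAC8H143A replicate 4. These correlations describe libraries that share depth and base composition, and they are given without a test. KDAC6H216A replicate 1 had 0.195% mitochondrial ribosomal RNA where its group had 13.1% or more, and KDAC6H611A replicate 2 had the highest share of all, 38.0%; the part of this share in the deviations was not tested.

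**Figure D5:**
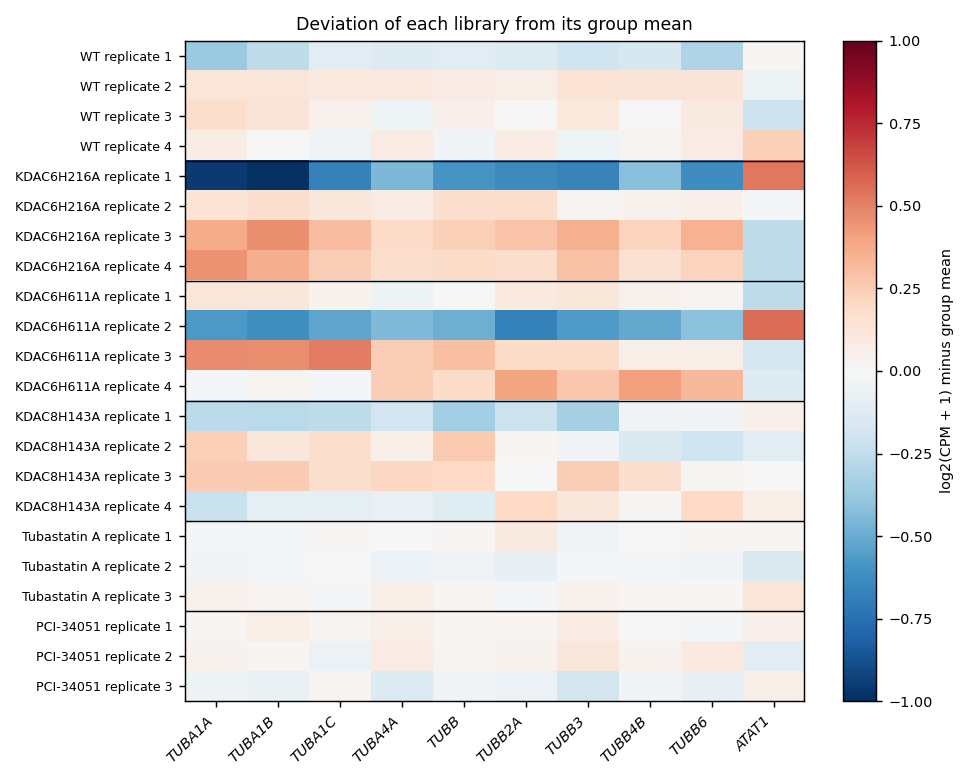
Colour map of the deviation of each of the 10 genes (columns) from its group mean in each of the 22 libraries (rows), on the log2(CPM + 1) scale, with red above and blue below the mean. The tubulins are all blue in KDAC6H216A replicate 1 (median -0.64) and KDAC6H611A replicate 2 (median -0.52), and ATAT1 is red in both.

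Genes that act on tubulin were read from lists in each comparison with WT, and their counts stand beside the 0.834, 12.3, 58.5, 57.9 and 51.1% of all genes called in KDAC6H216A, KDAC6H611A, KDAC8H143A, Tubastatin A and PCI-34051. The counts of 0 in KDAC6H216A also rest on its replicate 1: without it, an alternative added after seeing the data, 6 of 20 folding genes were higher, 2 genes of tyrosination and glutamylation higher and 2 lower, 3 microtubule-associated proteins higher and 1 lower, and 1 gene higher and 1 lower among both the γ-tubulin ring complex and the destabilisers. The folding list (20 genes: the chaperonin CCT, prefoldin and the tubulin cofactors, which bring α- and β-tubulin into the dimer) had 0 called in KDAC6H216A, 2 lower in KDAC6H611A, 16 lower and 2 higher in KDAC8H143A (median log2 fold change -0.90, beside 0.08 over all genes), 10 lower and 2 higher with Tubastatin A and 11 lower and 1 higher with PCI-34051. That is 90.0% of the list in KDAC8H143A and 12 of 20 with each inhibitor. In KDAC8H143A these included VBP1 (-1.80 ± 0.18), a prefoldin subunit, TCP1 (-1.65 ± 0.11), a subunit of CCT, and TBCA (-1.50 ± 0.13), a β-tubulin cofactor. In the inhibitor groups the prefoldin subunit PFDN1 fell (-0.73 ± 0.05 and -0.86 ± 0.06).

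Of the 4 genes of tubulin autoregulation, TTC5, which binds the nascent chain, rose with Tubastatin A (0.30 ± 0.08, adjusted p = 0.00315) and PCI-34051 (0.32 ± 0.08, adjusted p = 0.00238), the 1 call in each. In KDAC8H143A the TTC5 partner SCAPER rose (0.70 ± 0.13), and CNOT10 (-0.56 ± 0.12) and CNOT11 (-0.40 ± 0.10), subunits of CCR4-NOT, fell. In KDAC6H611A, CNOT11 fell (-0.55 ± 0.11) and CNOT10 rose (0.39 ± 0.09), and 0 were called in KDAC6H216A. Of the tubulin deacetylases, SIRT2 fell with both inhibitors (-0.48 ± 0.08 and -0.49 ± 0.09), and HDAC6 fell in KDAC6H216A as given above.

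Enzymes of the other tubulin modifications were called about as often as all genes in KDAC8H143A (62.5%) and with the inhibitors (9 of 15 each). Of 25 genes for tyrosination and glutamylation, 16 were tested in KDAC6H611A with 3 higher and 2 lower, including TTLL6, a glutamylase (3.31 ± 0.51, from 0.198 to 2.26 CPM), and VASH1, a carboxypeptidase that removes the terminal tyrosine of α-tubulin (1.16 ± 0.16). KDAC8H143A had 7 higher and 3 lower of 16, among them the carboxypeptidase MATCAP1 (1.87 ± 0.25) and the vasohibin partner SVBP (-1.96 ± 0.41). Each inhibitor had 6 higher and 3 lower of 15, and KDAC6H216A had 0. Microtubule destabilisers and severing enzymes, 11 tested of 14, had 8 lower and 1 higher in KDAC8H143A, where the katanin subunit KATNA1 fell (-1.57 ± 0.15), as did SPAST (-1.40 ± 0.16), which encodes spastin. The same list had 4 lower in KDAC6H611A, 4 lower and 3 higher with Tubastatin A, 5 lower and 2 higher with PCI-34051 and 0 in KDAC6H216A, which is 81.8% of those tested in KDAC8H143A and 63.6% with each inhibitor. Stathmin 3 (STMN3) fell in KDAC6H611A (-1.15 ± 0.15) and rose with both inhibitors (0.90 ± 0.08 and 0.84 ± 0.09).

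Of the γ-tubulin ring complex, which nucleates microtubules, 11 genes were tested, with 0 called in KDAC6H216A, 3 lower in KDAC6H611A, 3 lower and 3 higher in KDAC8H143A, 4 lower and 3 higher with Tubastatin A and 4 lower and 1 higher with PCI-34051, shares of 54.5, 63.6 and 45.5% in the last 3 that are near those of all genes. MZT1 fell in KDAC8H143A (-2.18 ± 0.22) while TUBGCP6 rose there (1.39 ± 0.19) and fell with the inhibitors (-0.97 ± 0.06 and -0.76 ± 0.06). Microtubule-associated proteins, 17 or 18 tested of 20, had 0, 2, 11, 12 and 11 called in the order above (61.1, 66.7 and 61.1% in the last 3). MAP1A rose in KDAC6H611A (2.00 ± 0.15) and fell in KDAC8H143A (-1.24 ± 0.17), and MAP2, a dendritic protein, rose with Tubastatin A (2.76 ± 0.24) and PCI-34051 (2.30 ± 0.28), from 1.17 to 8.74 and 6.29 CPM. Of 13 further tubulin genes, 6 to 8 were tested and 0, 1, 4, 5 and 2 called. TUBA3C fell in all comparisons with WT but that of KDAC6H216A (-0.53, -1.10, -0.40 and -0.67), TUBE1 fell (-1.27 ± 0.19) and TUBG2 rose (1.07 ± 0.21) in KDAC8H143A. Of the 3 other cytoskeletal genes set beside them, ACTG1 fell in KDAC8H143A (-0.60 ± 0.12), ACTB and ACTG1 rose with Tubastatin A (0.36 ± 0.04 and 0.29 ± 0.05), and VIM fell with both inhibitors (-0.24 ± 0.04 and -0.39 ± 0.05).

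The genes whose level over the 22 libraries was most like that of each member, by Pearson's r of log2 CPM among genes with a mean of at least 10 CPM, were GSTP1 for TUBB (0.99), NIPA2 for TUBA1A (0.98), RPL6 for TUBB3 (0.97), HIST1H4H for TUBA4A (0.97), CDC20 for TUBB4B (0.96), SHMT2 for TUBA1B (0.95), CCDC94 for TUBB6 (0.95), ARPC1A for TUBB2A (0.95) and COX5B for TUBA1C (0.93). For ATAT1 it was POTEG (0.96). These are descriptions over libraries of 6 groups that share group differences.

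TUBA1A, TUBB2A, TUBB4B and ATAT1 are the genes called in KDAC8H143A with 1 RefSeq start listed, the first 3 lower and the last higher, and the 250 bases before it (GRCh38.p14, 5′ to 3′ on the gene's strand) are shown, with CCAAT, on either strand, in capitals. The promoters are TUBA1A, chr12:49189081-49189330 on the minus strand, TUBB2A, chr6:3157545-3157794 on the minus strand, TUBB4B, chr9:137241037-137241286 on the plus strand, and ATAT1, chr6:30626624-30626873 on the plus strand.
TUBA1A: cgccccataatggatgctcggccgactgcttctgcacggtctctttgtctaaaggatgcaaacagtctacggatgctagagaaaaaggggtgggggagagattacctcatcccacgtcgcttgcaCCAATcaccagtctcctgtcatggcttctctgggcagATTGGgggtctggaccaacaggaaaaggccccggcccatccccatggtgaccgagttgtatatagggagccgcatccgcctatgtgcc
TUBB2A: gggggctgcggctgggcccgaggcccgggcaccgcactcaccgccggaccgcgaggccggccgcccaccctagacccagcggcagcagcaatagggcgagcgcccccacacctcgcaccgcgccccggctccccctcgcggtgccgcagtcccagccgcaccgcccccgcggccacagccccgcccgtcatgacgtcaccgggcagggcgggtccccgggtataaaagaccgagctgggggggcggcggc
TUBB4B: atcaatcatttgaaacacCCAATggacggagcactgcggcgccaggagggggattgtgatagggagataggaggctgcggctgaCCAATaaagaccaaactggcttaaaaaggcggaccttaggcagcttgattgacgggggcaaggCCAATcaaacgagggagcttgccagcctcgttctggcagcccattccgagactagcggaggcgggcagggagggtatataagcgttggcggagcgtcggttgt
ATAT1: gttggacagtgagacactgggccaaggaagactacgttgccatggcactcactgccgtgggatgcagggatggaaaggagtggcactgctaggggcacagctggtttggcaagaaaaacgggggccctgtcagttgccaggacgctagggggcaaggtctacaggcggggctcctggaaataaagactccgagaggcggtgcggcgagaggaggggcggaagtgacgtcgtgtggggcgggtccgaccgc
CCAAT began at -125 and -88 in TUBA1A, at -232, -166 and -103 in TUBB4B and nowhere in these 250 bases of TUBB2A and ATAT1, so the genes that fell did not share it. It was found, on either strand, in 6 of the 10 members (also TUBB and TUBB3, called lower, and TUBA1C and TUBB6, not called, in at least 1 of their listed starts, and not in TUBA1B and TUBA4A) and in 32.0% of 35116 promoters. GGGCGG was in 8 of 10 and in 42.6% of all, and TATAAA in 1 of 10 and in 10.7%. A member was counted if any of its 1 to 3 listed starts had the word, while the shares of all are per promoter. The counts and the shares are therefore in unlike units. The 3 words do not overlap each other in spelling, and a match is a match of letters only.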

How the data were processed

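RNA was rRNA-depleted with a Ribo-Zero Plus kit and sequenced as paired reads of 150 bases. The deposited values are expected counts per gene, which the authors made with RSEM 1.3.3 after Trimmomatic 0.39 and Bowtie2 2.4.5 on GRCh38, and which they compared with DESeq2 1.38.2, per the submitters' processing notes; the annotation release and the strand setting are not given in the sources used here. Gene lengths, positions and types came from GENCODE, matched by identifier for 56558 of 60675 genes, and promoters from RefSeq (GRCh38.p14).

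Expected counts were rounded. Each pair of groups was normalized by TMM, filtered with filterByExpr and tested with the quasi-likelihood test of edgeR 4.0.16 in R 4.3.3, with Benjamini-Hochberg adjustment over all genes tested and calls at an adjusted p below 0.01. The SE of a log2 fold change was derived from the test's F statistic. CPM were normalized over all 22 libraries, and TPM and shares used the union of exons. The SD and SE include the spread between the libraries of a group, and the floor of 3 counts covers counting error only. The p-values measure the spread between the replicate cultures of a group, and the edited groups descend from few colonies. Same-numbered replicates were checked for pairing by the correlation of their deviations from group means, which ran from -0.351 to 0.552. For KDAC6H216A against WT all were positive (0.018 to 0.332). Differently numbered replicates were not correlated for reference, so whether the numbers pair the samples was not settled. The main fits treated the samples as unpaired.

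Named list genes were at most 3 per list and comparison, the called genes of largest change reaching 1 CPM in the group where they were higher; for each member the gene of highest Pearson correlation was named, from the 3 highest. The members and lists were chosen with earlier results of these data known. Alternatives were DESeq2 1.42.0, other scalings and filters, a GC content and gene length correction with mgcv 1.9.3, a replicate block, a fit of all 6 groups and leaving out each library. Scripts ran in Python 3.11.15 and were tested on simulated data.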

Additional observations from a re-analysis of the deposited data

Results flagged for a closer look

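In 4 of the 40 groups of 4 libraries tested for a library standing apart, 1 library did so by Dixon's criterion, which a single test meets by chance about 1 time in 20. The tests used the same libraries for each gene, so they were not independent and their count cannot be set against that rate. KDAC6H216A replicate 1 was lowest for TUBB (886 CPM) and for TUBB2A (15.4 CPM), WT replicate 1 was lowest for TUBB6 (219 CPM), and KDAC6H611A replicate 2 was highest for ATAT1 (10.9 CPM). All 9 tubulins lay below their group means in each of these 3 libraries and in KDAC8H143A replicate 1.

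The inhibitors differed in their effect on 7 tubulin genes by a direct test in edgeR, with higher levels under Tubastatin A. The log2 differences were 0.34 for TUBA1A, 0.37 for TUBA1B, 0.29 for TUBA1C, 0.22 for TUBB, 0.27 for TUBB3, 0.24 for TUBB4B and 0.30 for TUBB6, over 3 libraries against 3 without overlap in any of the 7. Of all genes, 5.65% were called in this test, 3.45% with Tubastatin A higher. Ranges did not overlap for 31.6% of all genes, 17.9% with Tubastatin A higher. With 1 library left out, TUBB3 was called in 1 of 6 fits, TUBB4B in 4, TUBB in 5 and the other tubulins named here in 6. In the fit of all 6 groups none of the 7 was called, but that fit called only 7 of all 18480 genes. Doses differed between the inhibitors, and what part dose has in the differences was not tested.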

How the results depend on the processing

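Of the 10 genes, the number called changed with the setting as follows. In KDAC6H611A against WT (main value 1) it was 3 with DESeq2, with the GC content and gene length correction and at an adjusted p below 0.05, 2 with no filter and 0 when scaled to the total count alone. In KDAC8H143A (6) it was 10 with the GC content and gene length correction, 8 with DESeq2 and at an adjusted p below 0.05, 7 with upper quartile normalization and without mitochondrially encoded and small RNA genes, and 5 with total-count scaling. With Tubastatin A (4) it was 9 with total-count scaling and 0 with all 6 groups in one fit, with PCI-34051 (6) it was 3 in that fit and 7 with DESeq2, total-count scaling, upper quartile normalization or no filter, and between the inhibitors (7) 0. Between the KDAC6 lines (0) it was 2 with DESeq2 and with the GC content and gene length correction, 1 with no filter, 4 with all 6 groups in one fit and 3 at an adjusted p below 0.05. Leaving out 1 library gave 0 to 4 in KDAC6H216A, 0 to 3 in KDAC6H611A, 6 to 8 in KDAC8H143A, 4 to 5 with Tubastatin A, 5 to 7 with PCI-34051, 4 to 7 between the inhibitors and 0 to 5 between the KDAC6 lines, and TUBB4B and TUBB6 were added in KDAC6H611A without its replicate 2 or 4 and TUBA1C without its replicate 3. The causes were not tested. Counts over all genes moved with the setting too. KDAC6H611A had 1814 of 14725 in the main fit, 2333 with DESeq2, 1820 with the correction and 913 with total-count scaling. With no filter it had 2468 of 31966. KDAC8H143A had 9419 of 16101 in the main fit, 7669 with the correction, 9661 with DESeq2, 8975 with total-count scaling and 9394 with upper quartile normalization. Without mitochondrially encoded and small RNA genes it had 9242 of 15902. Tubastatin A had 8821 of 15246 in the main fit and 9756 with total-count scaling. PCI-34051 had 7835 of 15346 in the main fit, 7382 with DESeq2, 9370 with total-count scaling and 7857 with upper quartile normalization. With no filter it had 8741 of 32410. In the fit of all 6 groups, 4607 of 18480 were called with Tubastatin A and 4341 with PCI-34051. That fit called 7 between the inhibitors and 3382 between the KDAC6 lines. Between the KDAC6 lines, 2492 of 14961 were called with DESeq2, 1499 with the correction and 1678 of 32042 with no filter. For the 10 genes, a block by replicate number gave 0, 1, 7, 4, 6, 6 and 0 calls in the order of the comparisons. With the GC content and gene length correction added, it gave 2 in KDAC6H611A, 10 in KDAC8H143A and 1 between the KDAC6 lines. Over all genes the block called 66, 1559, 9194, 7711, 7134, 766 and 930 in the order of the comparisons. With the correction added, the block called 1353 in KDAC6H611A, 7615 in KDAC8H143A and 858 between the KDAC6 lines. With 1 library left out the all-gene counts were 28 to 3813 in KDAC6H216A, 1122 to 2908 in KDAC6H611A and 8186 to 10520 in KDAC8H143A. They were 8159 to 8902 with Tubastatin A and 7043 to 7686 with PCI-34051. Between the inhibitors they were 407 to 1161 and between the KDAC6 lines 772 to 3041. All-gene counts at an adjusted p below 0.05 were not taken.

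Reversed signs concerned small differences or the scaling. Scaling to the total count alone turned the log2 fold change of TUBB in KDAC6H216A (to 0.14), of TUBA1C (0.0054) and TUBB6 (0.12) in KDAC8H143A, of TUBA1B (0.21), TUBA1C (0.32) and TUBB2A (0.34) with Tubastatin A, and of TUBA1A (0.086), TUBA1C (0.064), TUBB (0.23) and TUBB2A (0.33) with PCI-34051. No filter turned TUBB in KDAC6H216A (0.026), TUBA1C (0.064) and TUBB2A (0.087) with Tubastatin A and TUBB2A with PCI-34051 (0.025). All 6 groups in one fit turned TUBB in KDAC6H216A (0.088), TUBA4A in KDAC8H143A (-0.012), TUBA1C (0.085) and TUBB2A (0.11) with Tubastatin A and TUBB2A with PCI-34051 (0.041). The GC content and gene length correction turned TUBB in KDAC6H216A (0.045), TUBA4A in KDAC8H143A (-0.62), TUBA1C (0.0056) and TUBB2A (0.10) with Tubastatin A and TUBB2A with PCI-34051 (0.038), and with the replicate block added the same genes except TUBA1C (0.020, -0.63, 0.11 and 0.053). TUBA4A in KDAC8H143A also turned with DESeq2 (-0.0067) and without mitochondrially encoded and small RNA genes (-0.034), and TUBB2A with Tubastatin A with at least 10 counts in every library (0.014) and with the replicate block alone (0.0077). With 1 library left out, the log2 fold change ran from -0.062 to 0.11 for TUBB and -0.045 to 0.17 for TUBB6 in KDAC6H216A, -0.0063 to 0.38 for ATAT1 in KDAC6H611A, -0.077 to 0.10 for TUBA4A in KDAC8H143A, and -0.033 to 0.093 for TUBA1A, -0.038 to 0.0047 for TUBA1C and -0.054 to 0.041 for TUBB2A with Tubastatin A. At WT depth ATAT1 rests on 30 to 51 counts a library, which limits what can be seen for it in the KDAC6 comparisons.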
